A study of Mus musculus with 18 samples.

Results

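R-spondins are secreted proteins that raise the response of a cell to Wnt ligands. They bind LGR4, LGR5 and LGR6, membrane receptors with leucine-rich repeats, and at the same time the membrane ubiquitin ligases RNF43 and ZNRF3. The ligases mark Frizzled receptors and their LRP co-receptors for removal from the cell surface, and an R-spondin that joins a receptor to a ligase takes the ligase itself off the membrane. In the intestinal crypt Lgr5 marks the stem cells at the base, Lgr4 is known from a wider zone of the crypt, and Rnf43 and Znrf3 are Wnt targets and so form a negative feedback loop.

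The genes described here are these 5, the receptors Lgr4, Lgr5 and Lgr6 and the ligases Rnf43 and Znrf3, chosen by symbol from the 43346 genes of the count table. All 5 had a mean count above 0 and so were among the 26717 genes tested. They were followed over 18 RNA-seq libraries of sorted crypt cells, in 6 groups of 3. The mice carried Lgr5-eGFP-IRES-CreERT2 on a C57BL/6 background, were untreated and were 8 to 20 weeks old by the labels. EPCAM-positive cells of the small intestine (SI) and the large intestine (LI) were sorted on GFP into high, mid and low fractions, which stand for the crypt centre, its border and the rows above row 3 (row >3). The question was how the transcriptome differs between these positions and between the sites. The reporter is knocked into the Lgr5 locus itself, so the level of Lgr5 across the fractions of a site was set by the sort and is given as a description. It also enters ratios and changes by number that were tested, and nothing is concluded from those tests for Lgr5. Lgr5 is left out of counts of called genes except between sites at the same GFP level. This line is known for patchy GFP expression, so cells of the low fraction are those with little reporter.

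The libraries held 8312093 to 31940965 counts. The 3 SI libraries numbered 3 stood apart from the other SI libraries. Genes that were at least 20-fold higher in LI than in the SI library numbered 1 of the same fraction stood in those numbered 3 at a median of 60.7% (centre, 51 genes), 84.9% (border, 45 genes) and 79.3% (row >3, 33 genes) of the LI level, against 1.75%, 1.62% and 1.15% in the SI libraries numbered 2. Most main tests of Lgr4, Rnf43 and Znrf3 that use SI are therefore given with and without these 3 libraries. The text gives Lgr4 at the SI border against the centre, and between the centres of the sites, only without them. The contrast from centre to border between the sites is given by its calls alone. Counts over other genes of the pathway that are given for SI also come with and without these libraries. The sort did not separate the fractions equally in every set: Lgr5 in SI border replicate 3 (156.7 normalised counts) was below that in 2 of the 3 SI row >3 libraries. In each group the 5 epithelial markers were present (summed level at least 2716 CPM, counts scaled by library size) and the 5 stromal markers reached at most 15.6 CPM. Values called normalised counts are counts divided by the size factor of each library; levels are compared between genes only as CPM per kilobase (kb) of merged exons.

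Lgr4 (ENSMUSG00000050199) lies on chr2:109917647-110014257 of mm10, on the plus strand. It was high in all 18 libraries. In SI the normalised counts in replicates 1, 2 and 3 were 4092, 3687 and 2729 in the centre, 3726, 3817 and 2355 at the border and 3852, 3480 and 2295 in row >3. In LI they were 2576, 2605 and 2537, then 2108, 2575 and 2651, then 2137, 2403 and 2558. The fractions of a site overlapped in every case, whereas the SI libraries numbered 1 and 2 were above all LI libraries and those numbered 3 were near the LI range. Per kb of exon Lgr4 was at 29.0 ± 5.58 CPM in the SI centre and 22.2 ± 0.563 CPM in the LI centre (SD, n = 3 each), above 96.6% and 94.5% of the genes in those groups.

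The receptor Lgr5 (ENSMUSG00000020140, chr10:115450311-115587780, minus strand) followed the gates. Its normalised counts were 5252, 4191 and 2434 in the SI centre, 1610, 2028 and 156.7 at the SI border and 169.6, 279.6 and 28.1 in SI row >3. In LI they were 2575, 2327 and 2176 in the centre, 1676, 1492 and 1184 at the border and 133.9, 466.1 and 262.2 in row >3. In LI the 3 fractions did not overlap, and in SI only the centre was apart from the other 2. Relative to the centre library of the same number, row >3 kept 3.23%, 6.67% and 1.15% of the Lgr5 level in SI and 5.20%, 20.0% and 12.05% in LI.

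Lgr6 (ENSMUSG00000042793, chr1:134983301-135105276, minus strand), a receptor better known from the skin, was close to absent. The raw counts were 9, 0 and 1 in the SI centre, 2, 6 and 0 at the SI border, 3, 0 and 0 in SI row >3 and 0 in all 9 LI libraries. The 21 SI counts, in 5 of 9 libraries, were, as CPM, 7.55-fold the 3 counts over the 9 LI libraries that a count of 0 allows. Without SI centre replicate 1, which held 9 of the SI counts, the value was 4.90-fold. By fraction it was 3.29-fold in the centre, 3.76-fold at the border and 0.962-fold in row >3. These values allow for counting error in the LI count only and take the SI counts as observed. Lgr6 is not followed further.

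The ligase Rnf43 (ENSMUSG00000034177, chr11:87662722-87735539, plus strand) had the highest level per kb of the 5 in the SI centre. Its normalised counts were 7253, 6479 and 4371 in the SI centre, 4432, 4876 and 1627 at the border and 1343, 1666 and 1208 in row >3. In LI they were 3556, 2611 and 2395 in the centre, 2885, 1985 and 1970 at the border and 1620, 1515 and 1383 in row >3. All SI centre libraries were above all LI centre libraries, while the row >3 libraries of both sites lay in a common range. Per kb Rnf43 was at 44.8 ± 10.8 CPM in the SI centre, 22.0 ± 4.21 CPM in the LI centre, 10.5 ± 1.62 CPM in SI row >3 and 11.7 ± 0.839 CPM in LI row >3 (SD, n = 3 each). A sense intronic transcript annotated inside the gene, 1110028F11Rik, shares no exon with it.

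Znrf3 (ENSMUSG00000041961, chr11:5276324-5444847, minus strand), the second ligase, was lower per kb than Rnf43 in every group. Its normalised counts were 1295, 1189 and 1086 in the SI centre, 864.2, 930.6 and 569.1 at the border and 398.0, 536.3 and 320.0 in row >3. In LI they were 1170, 965.1 and 1012 in the centre, 1119, 869.6 and 806.9 at the border and 409.9, 709.1 and 617.7 in row >3. The 3 SI fractions did not overlap, and LI row >3 was below both other LI fractions. Over all genes, 4.6% were likewise lower without overlap from SI centre to border, 5.11% from SI border to row >3 and 7.18% and 5.4% in LI row >3 against centre and border. The centres of SI and LI shared a range, at 7.34 ± 0.594 and 6.73 ± 0.534 CPM per kb (SD, n = 3 each).

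**Figure D1:**
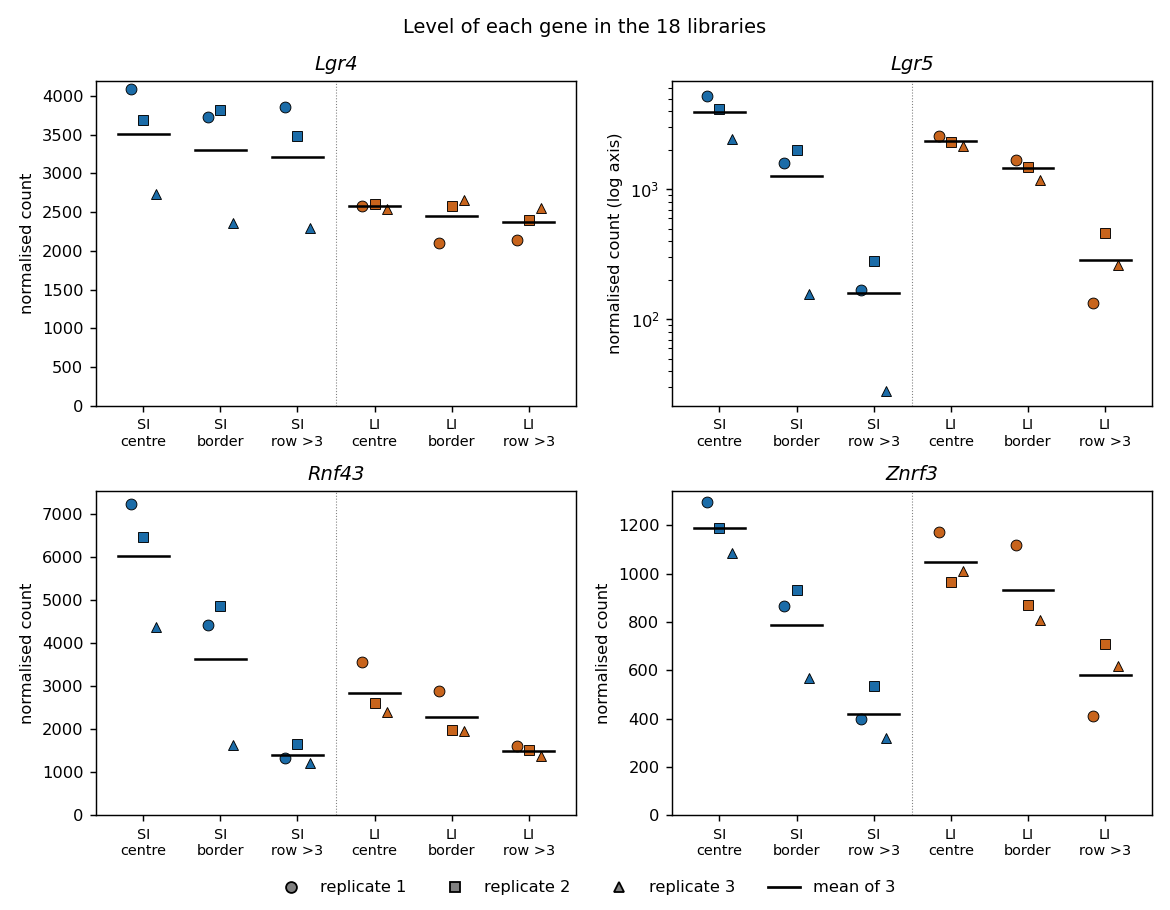
Normalised counts of Lgr4, Lgr5, Rnf43 and Znrf3 in each of the 18 libraries, by site and GFP fraction; symbols give the replicate number, bars the mean of 3, and only the Lgr5 axis is logarithmic. Lgr4 is flat across fractions, Rnf43 starts highest in the SI centre (mean 6035) and meets the LI level in row >3, and the SI libraries numbered 3 are the lowest of their group for each of these genes.

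Ordered by group mean, the neighbours of Lgr4 from SI centre down to LI row >3 all overlapped. For Rnf43 the order ran from SI centre through SI border, LI centre, LI border and LI row >3 to SI row >3, and only LI border and LI row >3 did not overlap. The order of Znrf3 was SI centre, LI centre, LI border, SI border, LI row >3 and SI row >3, with overlap between all neighbours.

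The promoters of Lgr4 and Rnf43 are shown because the results turn on these 2 genes, a receptor with a flat profile across fractions and a ligase with a steep one. RefSeq windows from 250 bases before to 50 bases after the start (GRCm38.p6) were found for 3 of the 5 genes, Lgr4, Lgr6 and Rnf43. Capitals mark CCAAT on either strand (CCAAT or ATTGG).

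Lgr4 chr2:109917397-109917696 (+): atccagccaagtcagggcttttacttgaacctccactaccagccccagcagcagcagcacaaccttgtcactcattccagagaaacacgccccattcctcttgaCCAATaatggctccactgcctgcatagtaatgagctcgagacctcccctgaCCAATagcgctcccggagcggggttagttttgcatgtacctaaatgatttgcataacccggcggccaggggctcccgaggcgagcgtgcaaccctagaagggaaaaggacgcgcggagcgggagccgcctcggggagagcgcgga

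Rnf43 chr11:87662837-87663136 (+): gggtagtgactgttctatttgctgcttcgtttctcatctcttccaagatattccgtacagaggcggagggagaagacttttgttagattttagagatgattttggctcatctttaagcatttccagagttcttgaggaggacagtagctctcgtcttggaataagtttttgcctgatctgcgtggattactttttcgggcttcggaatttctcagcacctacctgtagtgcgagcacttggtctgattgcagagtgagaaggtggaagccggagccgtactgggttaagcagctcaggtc

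The Lgr4 window held 2 CCAAT matches, 146 and 95 bases before the start, which 11.7% of 32851 promoters match or exceed, and the Rnf43 window held 0, where 37.4% of promoters hold at least 1. Neither window held CTTTG or its complement CAAAG, the core letters bound by TCF and LEF factors, which do not overlap CCAAT and which 53.9% of promoters of this length hold. Lgr4 had 58.3% G and C and 18 CpG pairs, Rnf43 46.7% and 10, against medians of 52.7% and 7 over all promoters. RefSeq lists a second start for Rnf43, chr11:87699647-87699946 (+), not printed here, whose window held 44.3% G and C, 3 CpG pairs and neither motif. These are descriptions of the letters in the windows and were not related to the levels.

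From the SI centre to SI row >3 both ligases fell and Lgr4 was not called. Lgr4 was slightly lower in all 3 pairs of the same number (log2 change -0.14 ± 0.0950, SD). Rnf43 fell by 2.10 on the log2 scale (SE 0.299, adjusted p = 2.07e-04), from a mean of 6035 ± 1492 to 1406 ± 235.0 normalised counts (SD, n = 3). Znrf3 fell by 1.501 (SE 0.225, adjusted p = 1.49e-04), from 1190 ± 104.7 to 418.1 ± 109.5 (SD, n = 3). The adjusted p-values are from edgeR's quasi-likelihood test over all genes. For both genes the 3 row >3 libraries were below all 3 centre libraries, as for 12.1% of all genes. The Lgr4 difference was -0.12 (95% interval -0.55 to 0.30, adjusted p = 0.800) and -0.08 without the SI libraries numbered 3 (-0.44 to 0.28), so a change of the size seen in either ligase lies outside both intervals. Of the 4 genes other than Lgr5, whose difference of -4.58 the sort set, 2 passed the threshold of 0.05, both lower, in a comparison where 13.2% of all genes were called and 5.82% were called lower. Without the SI libraries numbered 3 the differences of Rnf43 and Znrf3 were -2.19 and -1.41, with adjusted p-values of 4.59e-08 and 8.93e-05 (17.1% of genes called), and both calls held in all 16 alternatives, including all 6 that left out 1 library.

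Markers of other crypt cells moved along the same fractions. The summed level of 6 goblet markers was 745 to 10581 CPM in the SI centre and 31880 to 50363 CPM in SI row >3, that of 7 absorptive markers 140.1 to 313.3 CPM and 614.7 to 3029 CPM, and that of 3 cycling markers 1784 to 2574 CPM and 688.2 to 1871 CPM, with no marker of these lists at 0 in a whole group, although Car1 had 0 counts in at least 1 SI centre library. Car1 (0 to 82.1 CPM in the centre and 2.89 to 1939 CPM in row >3) and Slc26a3 (10.8 to 36.6 and 17.7 to 382.1 CPM) set the width of the absorptive range. Slc5a1, Apoa1 and the cycling marker Top2a also overlapped between the fractions. Most of the goblet sum was Muc2 and Fcgbp, and 5 of the 6 goblet markers were higher in all row >3 libraries than in all centre libraries, while Clca1 lay the other way, at 32.5 to 50.3 CPM in the SI centre and 5.05 to 13.8 CPM in SI row >3. The 4 Paneth markers ranged, with overlap, from 1289 to 6040 CPM in the centre (median 1478) and from 144.1 to 3363 CPM in row >3 (median 2277). Their part in the fall of the ligases was not tested. In sorted pools such as these, fewer cells with a transcript and less transcript per cell cannot be told apart.

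At the SI border the ligases lay between the other fractions. Against the centre none of the 4 genes was called by edgeR (0.0112% of all genes were) or by DESeq2 (0.782%). Of the 4, 2, the ligases, had an unadjusted p under 0.05 with each tool, against 2399 of the 26717 genes in edgeR and 2213 in DESeq2. The Rnf43 difference was -0.75 (SE 0.289, adjusted p = 0.432) and the Znrf3 difference -0.61 (SE 0.221, adjusted p = 0.372). With the replicate number as a block, where 2.32% of genes were called, Rnf43 fell by 0.83 (SE 0.172, adjusted p = 0.0193) and Znrf3 stood at -0.64 (adjusted p = 0.0732). The border kept 61.1%, 75.3% and 37.2% of the Rnf43 level of the centre library with the same number, the lowest share being in replicate 3. Without the SI libraries numbered 3 the unblocked differences were -0.59 for Rnf43 (adjusted p = 0.232), -0.50 for Znrf3 (adjusted p = 0.660) and -0.07 for Lgr4 (95% interval -0.43 to 0.28). The 5 tuft markers summed to 30.7 to 387.7 CPM in the SI centre and 289.3 to 891.4 CPM at the border, with Plcb2 at 4.07 to 8.86 CPM and 30.1 to 94.2 CPM. Goblet markers were at 4418 to 13917 CPM at the border and absorptive markers at 282.4 to 2013 CPM, and no marker of these 3 lists was at 0 in a whole group, while Car1 was at 0 in at least 1 library of both fractions. Clca1 of the goblet list was lower at the border, at 32.5 to 50.3 CPM in the centre and 13.8 to 30.0 CPM at the border. The part of these markers in the difference was not tested.

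From the border to row >3 in SI, Rnf43 fell by 1.35 (SE 0.294, adjusted p = 0.0288) and Znrf3 by 0.89 (SE 0.225, adjusted p = 0.0471), 2 of the 4 genes, against 1.61% of all genes called and 0.764% called lower. Lgr4 differed by -0.02 (adjusted p = 1.0). Without the SI libraries numbered 3 the differences were -1.60 and -0.91, with adjusted p-values of 3.05e-05 and 0.0175 (7.23% of genes called), and that of Lgr4 was -0.0058. Both calls were lost without SI border replicate 1 (adjusted p = 0.111 for Rnf43 and 0.140 for Znrf3), SI border replicate 2 (0.151 and 0.222), SI row >3 replicate 1 (0.215 and 0.275) or SI row >3 replicate 3 (0.104 and 0.164). In these fits the differences stayed at -1.07 to -1.32 for Rnf43 and -0.72 to -0.84 for Znrf3. Both calls were also lost with library size only (0.0638 and 0.0689) and with only the groups compared (0.264 and 0.233), and that of Znrf3 without a filter (0.0772) and with RLE factors (0.0506). DESeq2 (0.00124 and 0.00918, with 4.88% of all genes called) and the replicate block (4.16e-04 and 0.00605, with 9.78% called) called both. Goblet markers summed to 4418 to 13917 CPM at the border and 31880 to 50363 CPM in row >3, while Clca1 of that list was at 13.8 to 30.0 and 5.05 to 13.8 CPM. Tuft markers were at 289.3 to 891.4 and 91.1 to 392.5 CPM. The part of these markers was not tested.

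In LI the ligases also lay lower in row >3 than in the centre, and whether they were called depended on the fit. None of the 4 genes was called by edgeR without a block, where 0.0187% of all genes were, or by DESeq2 (0.348% of all genes). Of the 4, 2, the ligases, had an unadjusted p under 0.05 with either tool, against 1859 of the 26717 genes in edgeR and 1792 in DESeq2. Rnf43 differed by -0.91 (SE 0.290, adjusted p = 0.481), from a mean of 2854 ± 617.3 to 1506 ± 118.3 normalised counts (SD, n = 3). Znrf3 differed by -0.85 (SE 0.221, adjusted p = 0.314), from 1049 ± 107.6 to 578.9 ± 153.3 (SD, n = 3). The row >3 libraries of both genes were all below the centre libraries, as for 7.18% of all genes. With the replicate block Rnf43 fell by 0.90 (SE 0.174, adjusted p = 0.0112) and Znrf3 by 0.84 (SE 0.181, adjusted p = 0.0160), where 2.59% of all genes were called. Both ligases were also called with no block when the SI libraries numbered 3, which are not part of this contrast, were left out of the fit, Rnf43 at -0.92 (SE 0.157, adjusted p = 0.00227) and Znrf3 at -0.85 (SE 0.186, adjusted p = 0.0161), where 1.9% of all genes were called. Lgr4 stood at -0.12 in both fits (adjusted p = 0.970 without the block and 0.763 with it). Goblet markers were at 7426 to 12106 CPM in the LI centre and at 16081 to 24955 CPM in LI row >3, absorptive markers at 307.0 to 402.7 CPM and at 993.5 to 1619 CPM, and cycling markers at 1927 to 2395 CPM and at 1459 to 1931 CPM. Most of the absorptive sum was Car1 (123.3 to 231.7 and 795.4 to 1348 CPM). Within these lists Clca1 (11.2 to 27.6 and 6.72 to 9.32 CPM) and Fabp1 (0.636 to 0.756 and 0 to 0.274 CPM) were lower in all row >3 libraries, and Slc5a1, Krt20, Apoa1, Spink4 and Mki67 overlapped. Their part was not tested.

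Between the LI border and the LI centre no gene of the 4 was called by edgeR or DESeq2 and none had an unadjusted p under 0.05, in a comparison where 0% of all genes were called. The differences were -0.07 for Lgr4, -0.33 for Rnf43 and -0.17 for Znrf3, with 95% intervals of -0.50 to 0.35, -0.95 to 0.30 and -0.65 to 0.30. Between row >3 and the border 0% of all genes and none of the 4 were called by edgeR or DESeq2. Of the 4, 1, Znrf3, had an unadjusted p under 0.05 with either tool, against 993 of the 26717 genes in edgeR and 844 in DESeq2. The differences were -0.59 for Rnf43 and -0.67 for Znrf3, and the row >3 libraries of both were below all border libraries, as for 5.4% of all genes.

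Rnf43 lost a larger share of its level in the SI pairs of libraries than in the LI pairs, a difference that the model called in some fits only. Row >3 kept 18.5%, 25.7% and 27.6% of the Rnf43 level of its own centre library in SI and 45.6%, 58.0% and 57.8% in LI. The sites did not overlap. Of the 13520 genes with no count of 0 in these 12 libraries, 26.5% did not overlap, and 12.8% did so with SI lower, as for Rnf43. The log2 changes were -2.08 ± 0.308 in SI and -0.90 ± 0.1997 in LI (SD, n = 3 pairs each; difference -1.18, two-sided exact permutation p = 0.1, the smallest that 3 against 3 allows, 0.2 after Benjamini-Hochberg adjustment over 8 such tests). These 8 include the changes of Lgr5, whose level within a site the sort set, so the adjusted value depends on them too. In the edgeR model the difference between the sites was -1.18 (SE 0.409, adjusted p = 0.492), where 0% of all genes were called. DESeq2 called none of the 4 either (0.558% of all genes), and 2 of them, both ligases, had an unadjusted p under 0.05 in edgeR and 1, Rnf43, in DESeq2, against 1800 and 1741 of the 26717 genes. With the replicate block it was -1.19 (SE 0.245, adjusted p = 0.0206, with 2.32% of genes called) and without the SI libraries numbered 3 it was -1.26 (SE 0.247, adjusted p = 0.00358, with 3.27% of genes called).

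For Znrf3 the sites were not told apart. Row >3 kept 30.7%, 45.1% and 29.5% of the centre level in SI and 35.0%, 73.5% and 61.1% in LI. The difference in the model was -0.65 (95% interval -1.33 to 0.02, adjusted p = 0.735), with the replicate block it was -0.68 (adjusted p = 0.204) and without the SI libraries numbered 3 it was -0.55 (95% interval -1.22 to 0.11, adjusted p = 0.501). In all libraries the edgeR test of Znrf3 gave an unadjusted p under 0.05, although the interval, built from the SE and the residual degrees of freedom, spans 0. Lgr4 kept 94.1%, 94.4% and 84.1% in SI and 83.0%, 92.2% and 101% in LI, a difference of -0.01 with an interval of -0.61 to 0.59, and of 0.05 (-0.41 to 0.51) without those libraries. The same contrast from centre to border was not called for any of the 4 genes, with 0% of all genes called by edgeR, none of the 4 called by DESeq2 and none at an unadjusted p under 0.05 with either tool.

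**Figure D2:**
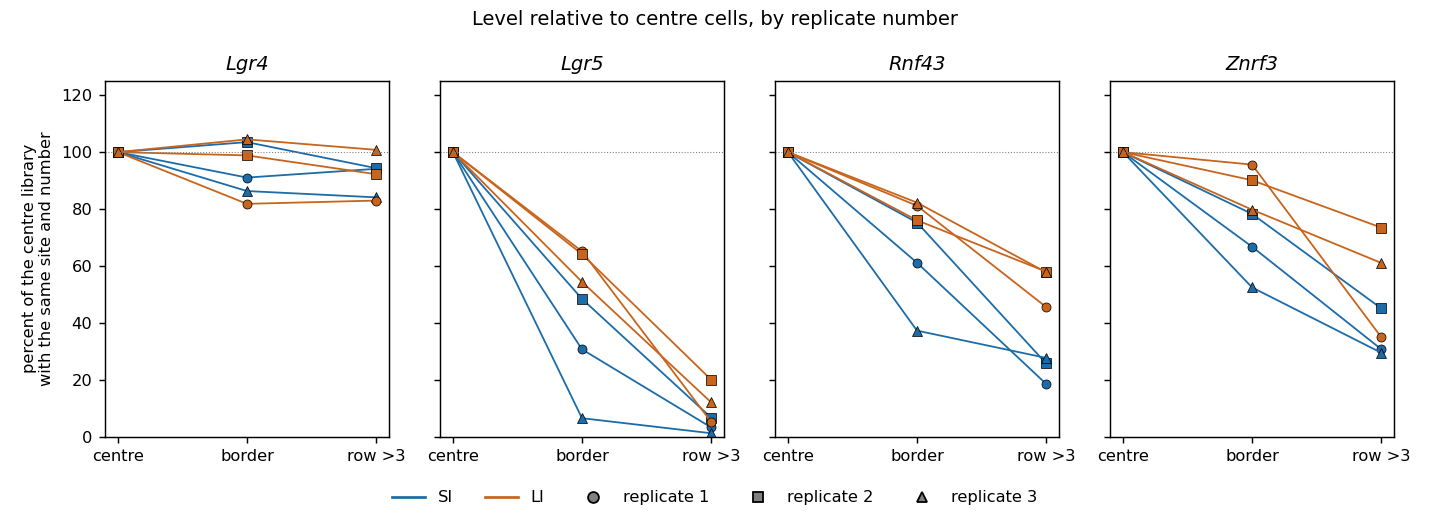
Level at the border and in row >3 as a percentage of the centre library of the same site and replicate number, for 4 genes; each line is 1 number in 1 site. Lgr4 stays between 81.8% and 104%, the Rnf43 lines of SI end at 18.5% to 27.6% and those of LI at 45.6% to 58.0%, and the Znrf3 lines of the sites cross.

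Between the sites at the same GFP level, none of the 5 genes was called by edgeR in all libraries. In centre cells, where 1.99% of all genes were called, Rnf43 was at 6035 ± 1492 in SI and 2854 ± 617.3 in LI (normalised counts, SD, n = 3), a log2 difference of 1.03 (SE 0.290, unadjusted p = 0.00245, adjusted p = 0.0792). DESeq2 called it (adjusted p = 0.0164, with 4.64% of all genes called). Of the 5 genes, 1 had an unadjusted p under 0.05 in edgeR and 2 in DESeq2, against 3884 and 3577 of the 26717 genes. Libraries of the sites did not overlap for Rnf43 and Lgr4, both higher in SI, as for 9.59% of all genes. Without the SI libraries numbered 3, Rnf43 was 1.25 higher in SI (SE 0.170, adjusted p = 1.14e-05) and Lgr4 0.58 higher (SE 0.143, adjusted p = 0.00813), where 10.9% of all genes were called.

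At the border, where 1.75% of all genes were called, Rnf43 differed by 0.61 (SE 0.289, adjusted p = 0.364) and Lgr4 by 0.36 (SE 0.195, adjusted p = 0.441). No gene of the 5 had an unadjusted p under 0.05 in edgeR (3706 of the 26717 genes had) and 1 did in DESeq2 (3562 genes), which called none (4.54% of all genes). Without the SI libraries numbered 3 they were 0.99 higher (adjusted p = 3.40e-04) and 0.58 higher (adjusted p = 0.0104) in SI, with 8.1% of all genes called. In row >3, where 4.09% were called, Rnf43 differed by -0.16 (95% interval -0.79 to 0.47) and by -0.01 without those libraries (-0.41 to 0.39). Lgr4 differed by 0.38 (adjusted p = 0.364) in row >3 and was 0.62 higher in SI (adjusted p = 0.00367) without them, where 12.2% of genes were called. In row >3, 1 of the 5 genes, Znrf3, had an unadjusted p under 0.05 in edgeR (4193 of the 26717 genes had). DESeq2 had none at that level (3783 of all genes) and called none (6.34% of all genes).

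Znrf3 was not called between sites in any fraction or alternative. Its differences were 0.13 in the centre (95% interval -0.35 to 0.60), -0.31 at the border (-0.79 to 0.17) and -0.53 in row >3 (-1.01 to -0.04, adjusted p = 0.233). The differences without the SI libraries numbered 3 were 0.23 (-0.23 to 0.68), -0.09 (-0.57 to 0.39) and -0.32 (-0.81 to 0.16). Lgr5, within fractions gated on its own reporter at each site, differed by 0.69, -0.28 and -0.88, with intervals that all spanned 0. The 4 Paneth markers were at 144.1 to 6040 CPM in SI and at most at 11.996 CPM in LI, and their part in the differences between sites was not tested. In the immune list Cd74 was at 63.4 to 576.8 CPM in SI and at most at 21.6 CPM in LI, Ptprc, the pan-leukocyte marker, was at 1.03 to 26.1 CPM in SI and 2.19 to 13.7 CPM in LI, highest at the border of each site, and Cd3e and Cd79a were at or below 1.57 CPM in both. The summed list was at 68.5 to 580.1 CPM in SI and 5.56 to 36.0 CPM in LI, and its part was not tested.

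**Figure D3:**
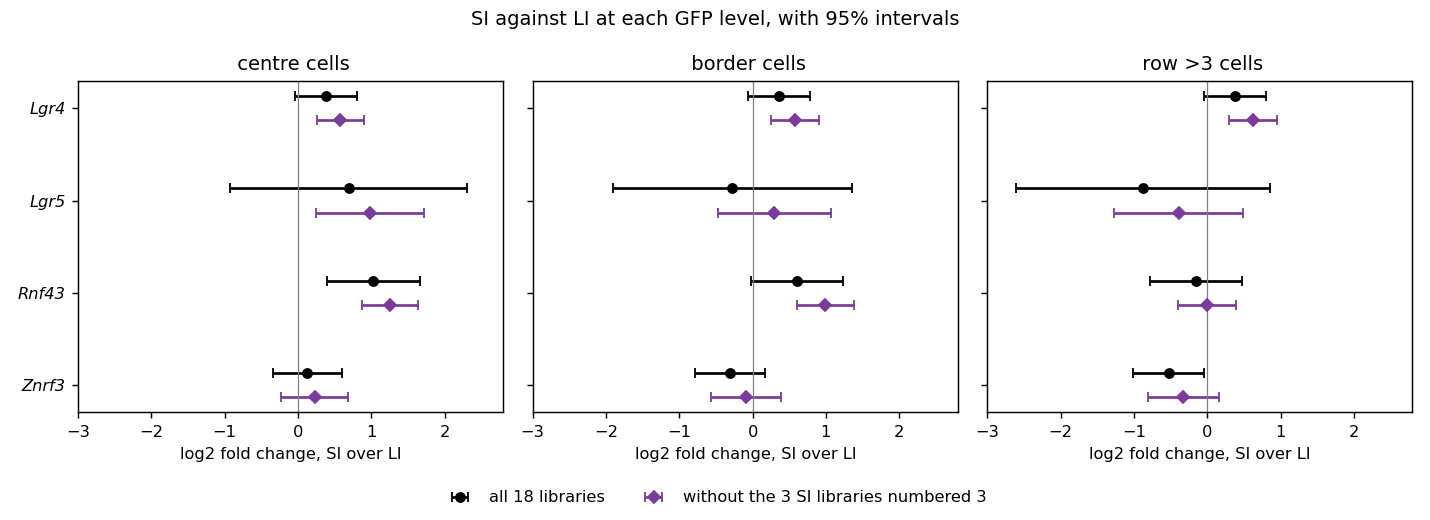
Log2 fold change of SI over LI (points) with 95% intervals (bars) for 4 genes at each GFP level, from the fit of all 18 libraries and from that without the 3 SI libraries numbered 3. The Rnf43 point moves from 1.03 in centre cells to -0.16 in row >3 cells, and the Lgr4 points are between 0.36 and 0.39 in all libraries.

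The balance between the members within a library is described by ratios. Over 4 ratios and 9 comparisons, 36 exact permutation tests were made, none of which can give a p under 0.1 with 3 libraries against 3 (0.189 after Benjamini-Hochberg adjustment over the 36). The 36 include ratios that hold Lgr5 across the fractions of a site, where the sort set Lgr5 in advance. No conclusion is drawn from those tests, and the adjusted value depends on their being in the family. Per kb, Znrf3 stood at 0.169 ± 0.0324 of Rnf43 in the SI centre and at 0.311 ± 0.0389 in the LI centre (SD, n = 3 each). The libraries of the sites did not overlap (log2 difference -0.89, two-sided exact permutation p = 0.1), nor did they at the border (0.204 ± 0.0752 against 0.342 ± 0.0210, p = 0.1). The log2 differences without the SI libraries numbered 3 were -1.04 in the centre and -1.09 at the border. In row >3 the ratios, 0.245 ± 0.0238 in SI and 0.323 ± 0.0984 in LI, overlapped (exact permutation p = 0.4).

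Rnf43 exceeded Lgr4 per kb in the SI centre (ratio 1.53 ± 0.0847) and was below it in SI row >3 (0.405 ± 0.0826), with the border at 0.944 ± 0.284. Its values in SI replicates 1, 2 and 3 were 1.59, 1.58 and 1.44 in the centre, 1.07, 1.15 and 0.620 at the border and 0.313, 0.429 and 0.472 in row >3, so that replicate 3 stood apart at the border. In LI the ratio was 0.995 ± 0.213 in the centre, 0.862 ± 0.317 at the border and 0.577 ± 0.0978 in row >3 (SD, n = 3 each). The SI centre libraries were all above the LI centre libraries (log2 difference 0.64) and the SI row >3 libraries all below those of LI (-0.52), each with an exact permutation p of 0.1. Replicate 3 was the SI library nearest to LI in both fractions. It stood at 1.44 against at most 1.24 in the LI centre, and at 0.472 against at least 0.485 in LI row >3. Of Lgr4 and Lgr5 together, Lgr5 made up 38.6% ± 4.35 in the SI centre and 34.4% ± 1.80 in the LI centre, and 2.52% ± 1.85 and 6.34% ± 3.34 in row >3 (SD, n = 3 each), a share set in part by the sort. The sum of both ligases over the sum of both receptors was 1.10 in the SI centre, 0.849 in the LI centre, 0.491 in SI row >3 and 0.710 in LI row >3.

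**Figure D4:**
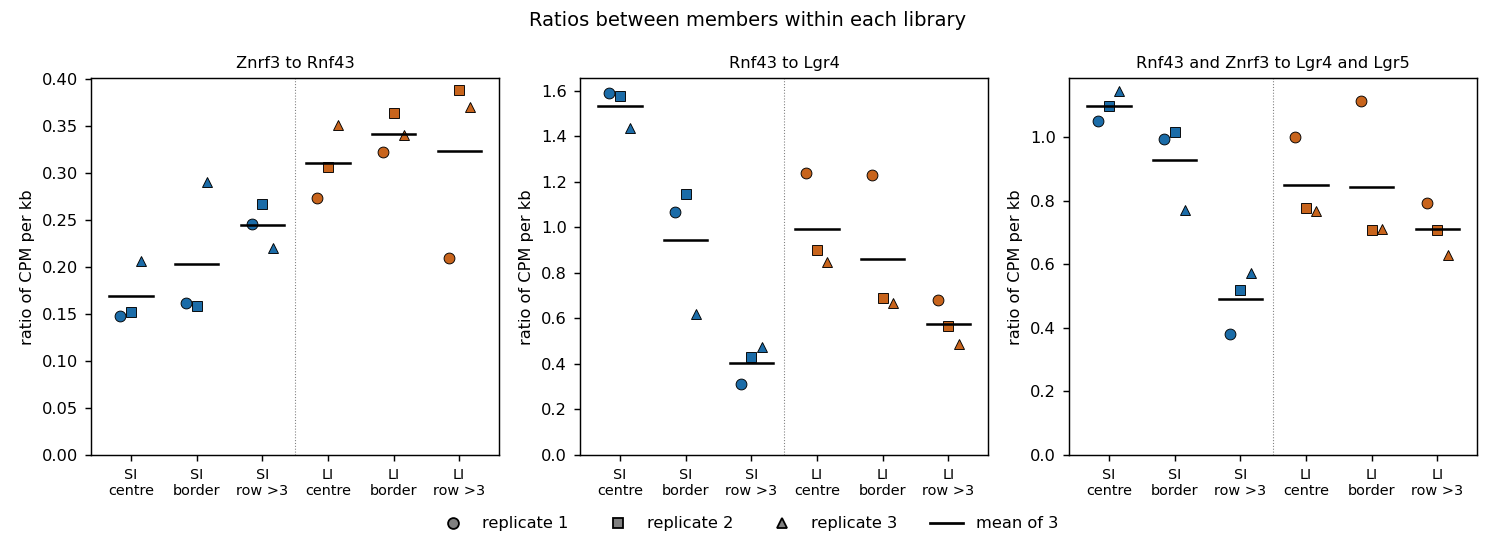
Ratios of CPM per kb of exon within each library: Znrf3 to Rnf43, Rnf43 to Lgr4, and both ligases to Lgr4 plus Lgr5; symbols give the replicate number and bars the mean of 3. Rnf43 exceeds Lgr4 in the SI centre (1.53) and is the lesser of the pair in SI row >3 (0.405).

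The profiles of the members over the 18 libraries were compared with those of 10222 genes by Pearson's r of log2 CPM, as a description, since libraries share gates, sites and depth. The gene most like Znrf3 was Lgr5 (r = 0.967), followed by Nfia, Fzd7, Ephb3 and Exo1 (0.962 to 0.966). Those most like Lgr5 were Fzd7, Clca4, Exo1, Scn2b and Myb (0.971 to 0.983), with Znrf3 in place 9. Rnf43 was most like Kif26b, Sorcs2, Rgs12, Farp1 and Atrx (0.965 to 0.974), and Lgr5 (0.853) and Znrf3 (0.805) came at places 276 and 491. Lgr4 was most like Synj2bp, Peg3, Mgam, B3glct and Slc25a15 (0.911 to 0.956), with Rnf43 (0.509), Lgr5 (0.364) and Znrf3 (0.190) at places 1105, 2085 and 3414. Without the SI libraries numbered 3, Lgr5 was at place 5 for Znrf3 (0.962), and Synj2bp stayed first for Lgr4 (0.972). Over the 9 LI libraries alone, Lgr5 was at place 44 for Znrf3 (0.960) and the r of Rnf43 with Lgr4 was -0.0043.

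The ligands were nearly absent from these epithelial cells. Rspo2 and Rspo3 had 0 counts in all 18 libraries, which allows up to 0.00781 CPM over their 383965607 counts, Rspo1 had 2 counts and Rspo4 had 3. R-spondins are known from the stroma around the crypt, and the stromal markers were low here, as given above. Of 5 other receptors of the LGR family, the relaxin and glycoprotein hormone receptors, only Rxfp2 had a count.

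The substrates of the ligases did not move as 1 group. Of 12 Frizzled and LRP genes, 6 were called between SI row >3 and the centre, 2 higher and 4 lower, with a median of -0.67 against 0.0 over all genes. Of all genes, 13.2% were called there, 7.35% higher and 5.82% lower, and without the SI libraries numbered 3 it was 7 of the 12 against 17.1%. From the SI border to row >3 edgeR called 0 of the 12 in all libraries and 3 without those numbered 3, Fzd7 and Fzd2 lower and Fzd5 higher, against 7.23% of all genes. Fzd7 fell by 2.10 (adjusted p = 3.38e-04), from 789.5 ± 182.5 to 179.9 ± 68.2 normalised counts, and Fzd2 by 2.56 (adjusted p = 0.00237), from 162.0 ± 43.9 to 26.4 ± 6.27 (SD, n = 3). Fzd5 rose by 0.82 (adjusted p = 9.82e-04), from 1800 ± 164.9 to 3169 ± 587.6, and Fzd4 by 2.12 (adjusted p = 7.78e-04), from 17.8 ± 6.87 to 78.7 ± 11.95 (SD, n = 3). Per kb the most abundant substrates in the SI centre were Fzd5 (12.7 CPM), Lrp6 (12.5 CPM) and Lrp5 (11.54 CPM), and the co-receptors Lrp5 and Lrp6 were not called in any comparison by edgeR, with or without the block or the SI libraries numbered 3, or by DESeq2. In LI row >3 against the centre edgeR called none of the 12 in the fit of all libraries without a block. With the block, Fzd7 fell by 1.398 (adjusted p = 0.00147) and Fzd2 fell by 1.66 (adjusted p = 0.0314), against 2.59% of all genes called. Both were also called lower without the SI libraries numbered 3 (adjusted p = 6.74e-04 and 0.0159, with 1.9% of genes called), and DESeq2 called Fzd7 (adjusted p = 0.0274, with 0.348% called). At the SI border against the centre edgeR called none in all libraries without a block and none without the SI libraries numbered 3. The block called Fzd7 (-0.94, adjusted p = 0.0259) and Fzd3 (-1.94, adjusted p = 0.0280) lower, against 2.32% of all genes. DESeq2 called Fzd3 lower (adjusted p = 0.0253) and Fzd4 higher (1.39, adjusted p = 0.0248), against 0.782%.

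Between sites Fzd4 was 2.34 lower in the SI centre than in the LI centre (adjusted p = 0.00155). At the border Fzd3 was 2.29 lower (adjusted p = 0.0241) and Fzd1 1.45 lower (adjusted p = 0.0319) in SI, and in row >3 Fzd1 was 1.30 lower (adjusted p = 0.0371) and Fzd5 0.64 higher (adjusted p = 0.0167) in SI. Of the 12, edgeR thus called 1 in the centre, 2 at the border and 2 in row >3, against 1.99%, 1.75% and 4.09% of all genes, and without the SI libraries numbered 3 it called 4 in each, where 10.9%, 8.1% and 12.2% of all genes were called. DESeq2 called 1, 3 and 2, where it called 4.64%, 4.54% and 6.34% of all genes. For Fzd4 the change from centre to row >3 differed between the sites by 1.98 with the replicate block (adjusted p = 0.0278, with 2.32% of all genes called) and DESeq2 called it as well (1.99, adjusted p = 0.00597, with 0.558% called), while in edgeR without the block the adjusted p was 0.206, and 0.0963 without the SI libraries numbered 3.

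Of 13 Wnt feedback and target genes, 7 fell between the SI centre and row >3 and 0 rose, with a median of -1.99, where 13.2% of all genes were called and 5.82% were called lower. There edgeR called 7 lower without the SI libraries numbered 3 as well, where 17.1% of all genes were called and 7.09% were called lower. That fit tested 12 of the 13 genes. DESeq2 called 6 lower, where 15.9% of all genes were called and 7.01% were called lower. Ascl2, a transcription factor of crypt base cells, fell by 3.68 (adjusted p = 5.01e-05), Tcf7, a nuclear factor of the pathway, by 1.99 (adjusted p = 2.45e-04), Sp5 fell by 3.102 (adjusted p = 0.00326) and Lef1 by 2.74 (adjusted p = 0.0129). From border to row >3 in SI, Ascl2 fell by 2.32 (adjusted p = 0.0205) and Tcf7 by 1.63 (adjusted p = 0.0145). These were 2 of the 13, and 7 were called lower without the SI libraries numbered 3 (7.23% of all genes called). In LI edgeR called none of the 13 from centre to row >3 in all libraries without a block. With the replicate block 4 fell, where 2.59% of all genes were called and 1.31% were called lower, of which Ascl2 fell by 2.204 (adjusted p = 3.92e-04), Axin2, a scaffold that limits beta-catenin, by 1.32 (adjusted p = 0.0402) and Tcf7 by 0.72 (adjusted p = 0.0374). Ascl2 (adjusted p = 1.01e-04) and Axin2 (adjusted p = 5.11e-05) were also called lower without the SI libraries numbered 3 and with no block, and DESeq2 called Ascl2 (adjusted p = 0.00405). Tcf7, like Rnf43, differed between the sites in this contrast with the block (-1.33, adjusted p = 0.0187), while without it the adjusted p was 0.459. In the fit without the SI libraries numbered 3 that of Tcf7 was 0.0588, and Axin2 (-0.98, adjusted p = 0.0184) and Tnfrsf19 (-2.73, adjusted p = 0.00643) were called. At the SI border the block called Sp5 (-1.69, adjusted p = 0.0117) and Ascl2 (-1.36, adjusted p = 0.0152) lower than in the centre, where edgeR in all libraries without it and DESeq2 called none. Sp5 was called lower with no block when the SI libraries numbered 3 were left out (-1.67, adjusted p = 0.0206, with 0.963% of all genes called).

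Between the sites the number of the 13 targets called varied with the SI libraries numbered 3. In the centre Lef1 was 4.62 higher in SI (adjusted p = 0.00863), with 164 counts over 3 SI libraries and 6 over 3 LI libraries, and it was the 1 target that edgeR called in all libraries, where 1.99% of all genes were. Without those libraries 5 were called, all higher in SI, where 10.9% of all genes were called. Among them Axin2 was 2.06 higher (adjusted p = 3.03e-09), Tnfrsf19, a receptor of the TNF family, 3.59 higher (adjusted p = 1.12e-08) and Sp5 2.42 higher (adjusted p = 6.07e-06). DESeq2, in all libraries, called 4 of the 13 higher in the SI centre, where it called 4.64% of all genes. At the border edgeR called 0 in all libraries (1.75% of all genes), 4 had an unadjusted p under 0.05, and 4 were called higher in SI without those numbered 3, against 8.1% of all genes. DESeq2 called 1 there, against 4.54%. In row >3 Tcf7 was 1.29 lower in SI (adjusted p = 0.0206), the 1 target called, where 4.09% of all genes were, and without those libraries 3 were called, 2 higher and 1 lower, against 12.2% of all genes.

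Of 9 adaptors and regulators of the receptor complex, 2 were called between SI row >3 and the centre: Cltc, the clathrin heavy chain, rose by 0.68 (adjusted p = 0.00475) and Daam1, a formin that binds Dishevelled, by 0.62 (adjusted p = 0.0139). Their share is to be read against the 13.2% of all genes called there. With the replicate block 4 of the 9 were called, 2 higher and 2 lower, against 22.8% of all genes. The count was also 2 without the SI libraries numbered 3, against 17.1%. That fit called 1 of the 9, Cltc, from the SI border to row >3 (7.23% of all genes). It called 1 between the sites in each fraction (10.9%, 8.1% and 12.2% of all genes). In all these comparisons edgeR in all libraries without a block called 0. None of 10 further ligases of the same transmembrane RING family was called by edgeR in all libraries without a block. Among them Rnf128 was the highest per kb in the SI centre, at 23.3 CPM, and its difference between SI row >3 and the centre was 0.31 (SE 0.214, adjusted p = 0.456). With the replicate block, where 22.8% of all genes were called in that comparison, 1 of the 10, Rnf150, fell by 0.65 (adjusted p = 0.0115). It was also called lower without the SI libraries numbered 3 (-1.01, adjusted p = 0.00248). Between the sites the fit without those libraries called 2 of the 10 in the centre, 3 at the border and 3 in row >3, against 10.9%, 8.1% and 12.2% of all genes, with Rnf150 1.63, 2.09 and 2.42 lower in SI in that order, and DESeq2 in all libraries called 0, 1 and 2, against 4.64%, 4.54% and 6.34%.

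**Figure D5:**
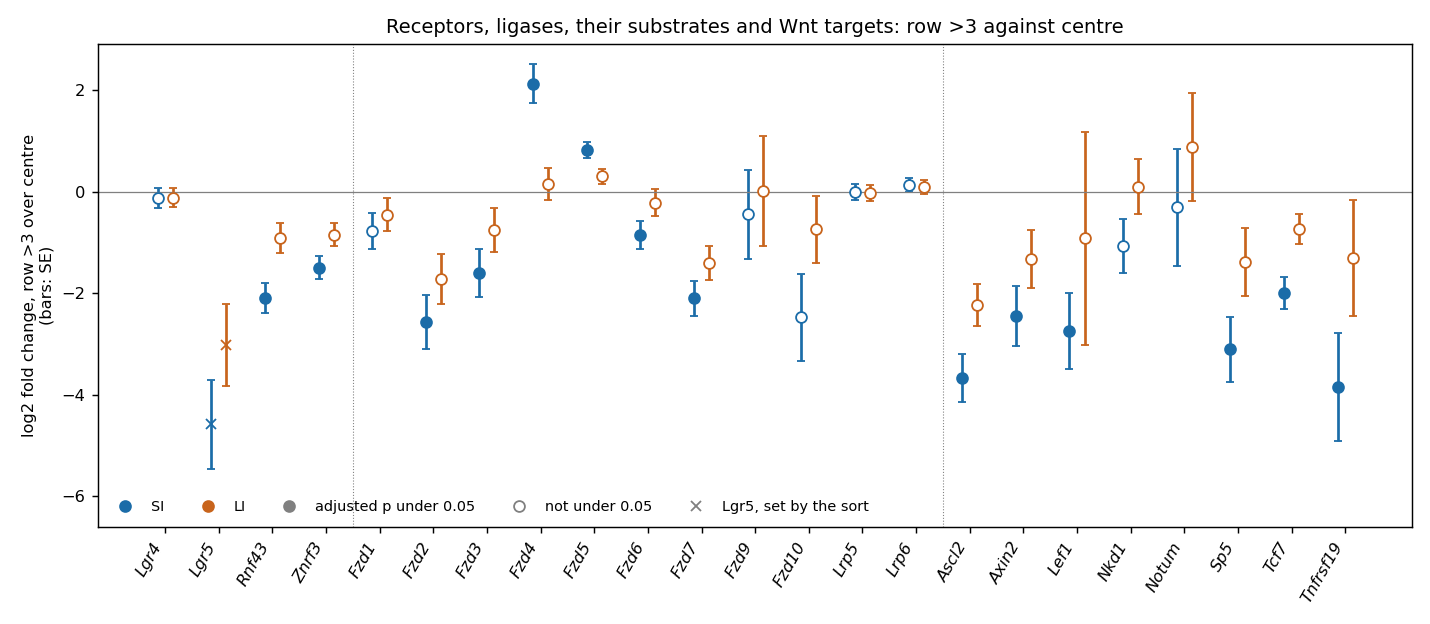
Log2 fold change of row >3 over centre (points) with its SE (bars) in SI and LI for 4 members, 11 substrates and co-receptors and 8 Wnt feedback and target genes with at least 100 counts over the 18 libraries; filled points have an adjusted p under 0.05 in edgeR over all libraries without a block, and crosses mark Lgr5, which the sort set. Filled points are found in SI alone, on both sides of 0 among the Frizzled genes and below 0 among the targets; the difference between sites was tested only where given in the text.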

How the data were processed

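EPCAM-positive cells were sorted on GFP and sequenced as paired-end reads from a stranded SMART-seq library. Per the study's methods, reads were trimmed with Skewer, aligned to mm10 with STAR, which also counted reads per gene, and normalised with DESeq2; which gene models and which strand setting were used is not given in the sources used here. The authors deposited raw counts (43346 genes) and a table of counts divided by size factors (24814 genes, a signal without log transformation), the deposited signal used here for levels. Each library's normalised values were its raw counts divided by 1 factor (largest relative deviation 9.88e-15). Gene positions and exon lengths came from GENCODE M21 (the mm10 build), which holds 42462 of the gene IDs.

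The members and gene lists were chosen with earlier results of these data known. Raw counts of the 26717 genes with a mean count above 0 were fitted in edgeR 4.0.16 (R 4.3.3) with TMM factors, 1 model of 6 groups and the quasi-likelihood test without its legacy option, leaving 12 residual degrees of freedom (9 without the SI libraries numbered 3). That option was set after both forms had been seen, so the legacy fit is among the alternatives. p-values were adjusted by Benjamini-Hochberg over all genes (threshold 0.05), and 95% intervals use the SE and the residual degrees of freedom of the fit. The labels do not say which mouse each number is, so p-values measure the spread between these libraries. Replicate numbers paired the libraries within a site: deviations from the group means correlated at 0.396 to 0.807 in SI (9 pairs) and 0.469 to 0.731 in LI (9 pairs) over genes of at least 10 CPM. Between sites they correlated at -0.00683 to 0.405, with all 3 border pairs over 0.1 and 1 pair each of centre and row >3 under it. Pairing across sites is therefore open, and the main tests between sites do not use it. Fits with the number as a block between sites are among the alternatives. Summed counts of the Y-linked Ddx3y and Eif2s3y were 1166 to 2372 in the libraries numbered 2 and at most 1 in the others.

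Named genes were the 5 members in every comparison, up to 4 called genes per list and comparison by adjusted p, every R-spondin, summed markers and the 5 genes most like each member with a mean of at least 5 CPM; genes of chromosome 18 were not named. Profiles used log2 CPM with a prior count of 2. Ratios and changes by number were compared with two-sided exact permutation tests. Alternatives were DESeq2 1.42.0, other filters and scaling, the replicate block, only the groups compared, single libraries left out, and the SI libraries numbered 3 left out. The fit was tested on simulated data.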

Additional observations from a re-analysis of the deposited data

Results flagged for a closer look

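The loss of Rnf43 between centre and row >3 differed between SI and LI in some fits only, by a test of the difference itself. In the blocked fit, the log2 change was -1.19 in SI relative to LI (adjusted p = 0.0206 in edgeR), and without the 3 SI libraries numbered 3 it was -1.26 (adjusted p = 0.00358). All 3 SI pairs of libraries and all 3 LI pairs were lower in row >3, and the percentages kept did not overlap between sites, as for 12.8% of genes in that direction. In the fit of all libraries without a block the adjusted p was 0.492, and over all 22 alternatives it ranged from 5.81e-05 to 1.0, with 3 calls. Goblet markers moved along the same fractions in both sites, from a median of 1338 to 35775 CPM in SI and from 7931 to 23551 CPM in LI, and their part was not tested.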

How the results depend on the processing

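Of the changes that carry the report, the fall of Rnf43 and Znrf3 from SI centre to row >3 was called in all 16 alternatives, and the count of members called there, Lgr5 left out, stayed at 2. Counts of members called moved elsewhere. From SI border to row >3 (2 called) the count was 1 without a filter and with RLE factors (0.556% and 1.53% of all genes called), 0 with library size only or with only the groups compared (0.808% and 0%), and 0 to 2 with single libraries left out, both ligases being kept without SI border replicate 3 or SI row >3 replicate 2 and lost without the other 4. Where 0 were called, the count was 1 with the replicate block (2.32% of all genes) and with the block and without the SI libraries numbered 3 together (2.29%) from SI centre to border; 1 with only the groups compared (1.03%) and 2 with the block (2.59%), without those libraries (1.9%) or with both (6.78%) from LI centre to row >3; and 1 with both (1.53%) from LI border to row >3. Between sites it was 1 in the centre with DESeq2 (4.64%), the block (5.61%) or only the groups compared (2.61%), 2 without those libraries (10.9%) and 2 with both (12.7%), and 0 to 1 with single libraries left out, 1 being without SI centre replicate 3; at the border 2 (8.1%), 2 (9.41%) and 0 to 1, 1 being without SI border replicate 3; in row >3 1 (12.2%) and 1 (14.5%). For the change from centre to row >3 between sites it was 1 with the block (2.32%), 1 without those libraries (3.27%) and 1 with both (7.63%). The cause was not tested.

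Some uncalled differences turned sign. Lgr5 between sites at the border was 0.30 without those libraries, 0.21 with both and -0.84 to 0.25 with single libraries left out. Lgr4 between sites was 0.0098 (filterByExpr), 0.046 and 0.051 for the change to row >3 (-0.17 to 0.17 with single libraries left out) and 0.0062 and 0.018 for that to the border (-0.19 to 0.15). With single libraries left out, Lgr4 ranged from -0.26 to 0.077 (SI border against centre), -0.28 to 0.067 (SI row >3 against centre), -0.20 to 0.18 (SI row >3 against border), -0.16 to 0.038 (LI border against centre) and -0.15 to 0.040 (LI row >3 against border), and the log2 ratio of Znrf3 to Rnf43 from -0.060 to 0.38 (SI border against centre), -0.15 to 0.30 (LI row >3 against centre) and -0.29 to 0.15 (LI row >3 against border).

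Whether the replicate numbers also pair the libraries across sites is open: 7 of 9 same-numbered pairs correlated above 0.1 and 16 of 18 libraries correlated best with their own number, a hint from the data and not from the labels. A block on the numbers would call Rnf43 in centre cells (adjusted p = 0.00935), and at the border, where all 3 pairs were above 0.1, it called none of the 5 (4.27% of all genes). Within sites, beyond the calls of Rnf43 and Znrf3 given above, the block changed no call of Lgr4, Lgr6, Rnf43 or Znrf3. The legacy fit called the same members as the one reported. It, the block without the SI libraries numbered 3 and the border contrast between sites were chosen after seeing the data. Lgr6, at 21 counts, is too shallow for any comparison of fractions.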
